A study of Mus musculus with 9 samples.

Results

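Mouse embryos without the Notch ligand Dll3 were compared with wild-type embryos, using the 2 arrays labelled Dll3 null and the 2 labelled wild type among the 9 arrays of the series. These 4 arrays were chosen by their titles alone, and every gene on them was described. The Dll3 null embryos carried the targeted allele on both chromosomes (Dll3neo/neo), and the wild-type embryos were +/+. The other groups in the series shared the fit: Dll3 het (Dll3neo/+, 2 arrays), Notch1 null (Notch1tm1Con/tm1Con, 2 arrays) and Notch1 het (Notch1tm1Con/+, 1 array). All were whole embryos at 9.5 days post coitum, from which total RNA was extracted and hybridised to Affymetrix arrays. A strain, C57BL/6J, is named for a single Notch1 null array, and the labels do not say whether an array held 1 embryo or a pool, or whether litters were shared. Replicate spread, and therefore every p-value, may be partly technical. With 2 arrays against 2, an exact permutation test of a single gene cannot go below a two-sided p of 0.333. Differences were therefore tested with limma, which borrows the spread from all groups with 2 arrays and from all genes. The single Notch1 het array has its own mean in the fit and adds nothing to the spread.

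Notch signalling passes between touching cells: a ligand on the surface of a cell opens a receptor on its neighbour to proteolytic cleavage, and the freed receptor domain joins the DNA-binding protein RBPJ to switch on target genes such as those of the Hes and Hey families. In the presomitic mesoderm, the tissue at the tail end of the embryo from which somites form, this signal oscillates and sets the rhythm and the front-to-back polarity of each somite. Dll3 is a divergent ligand that is made in the presomitic mesoderm, resides largely inside the cell and dampens Notch signalling rather than activating it. Its loss disorganises the vertebrae and ribs in mice and causes spondylocostal dysostosis in humans.

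The deposited values are ratios: for 87.5% of probe sets the median over the 9 arrays is exactly 1. Levels of different genes cannot be compared. The presence of marker genes of the embryo could not be checked for the same reason. A difference is given below as log2 of Dll3 null over wild type with its standard error (SE), and a probe set or gene is called changed at a Benjamini-Hochberg adjusted p under 0.05. Because whole embryos were used, fewer cells of a type and less RNA per cell cannot be told apart. The arrays also differed in measured features other than the Dll3 genotype. Xist and Eif2s3y, expressed from the inactive X and the Y chromosome, marked Dll3 null 1 as female and Dll3 null 2 and both wild types as male. Dll3 het 1, Notch1 null 1 and Notch1 het 1 had the female pattern, and Dll3 het 2 and Notch1 null 2 the male pattern. Outside wild type, sex therefore went with replicate number and forms part of the replicate spread. The poly-A control dap, an RNA added to the sample before labelling, had ratios of 6.61 and 9.20 in wild type, 0.360 to 0.403 in the 4 Dll3 arrays and 1.00 to 5.26 in the Notch1 arrays, and another, thr, was 5.02-fold lower in Dll3 null than in wild type. The part of these controls in the results below was not tested. With embryo sex as a covariate, 2 probe sets and 0 genes passed in place of the 20 and 1 given next.

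Few transcripts passed the test between Dll3 null and wild type. Of 22626 probe sets, 20 (0.0884%) were called: 16 lower (0.0707%) and 4 higher (0.0177%) in Dll3 null. When the probe sets of each of 12393 genes were averaged, a single gene (0.00807%), the ubiquitin ligase gene Cbl, was called. At an unadjusted p under 0.05, 2307 probe sets (10.2%) and 1157 genes (9.34%) differed. The median gene had a log2 difference of 0.00, the standard deviation over genes was 0.17, and 9 genes lay below -1 and 2 above 1. The count of called probe sets fell to 1 without wild type 1, to 0 without wild type 2, to 7 without Dll3 null 1 and to 2 without either Notch1 null array, and it rose to 49 without Dll3 null 2. Of the 20, 0 were called without wild type 1, 4 without Dll3 null 1, 2 without either Notch1 null array and 10 without Dll3 null 2. Cbl was not called as a gene without either wild type, either Dll3 het array, either Notch1 null array or Dll3 null 1. The count was also 0 when either Dll3 het array was left out or when only the 4 compared arrays were fitted.

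The lower probe sets with the largest differences belonged to Cbl, Ago2 and Akap9. Cbl encodes a ubiquitin ligase that sends activated receptor tyrosine kinases for degradation. Its probe set 1455886_at had ratios of 4.93 and 6.15 in wild type, 0.397 and 0.983 in Dll3 null, 1.13 and 1.00 in Dll3 het, 1.08 and 0.702 in Notch1 null, with 0.598 in Notch1 het. Both wild types thus stood far above the other 7 arrays, which overlapped among themselves. Dll3 null was 8.81-fold lower than wild type (log2 -3.14 ± 0.36 SE, adjusted p = 0.0296). The other Cbl probe set had a log2 difference of -0.99, and the gene as a whole differed by -2.07 ± 0.21 (adjusted p = 0.0369). Ago2, the argonaute that cuts RNA targets of small RNAs, was measured by a single probe set with ratios of 3.31 and 3.15 in wild type, 0.555 and 1.11 in Dll3 null, 1.10 and 1.00 in Dll3 het, and 0.574 to 0.713 in the Notch1 arrays. Again only the wild types stood apart, and Dll3 null was 4.10-fold lower (log2 -2.04 ± 0.25, adjusted p = 0.0366). Akap9, a scaffold of protein kinase A at the centrosome and Golgi, had ratios of 2.56 and 3.26 in wild type against 0.632 and 0.923 in Dll3 null at the called probe set (log2 -1.92 ± 0.22, adjusted p = 0.0296). Its other probe set differed by -0.11. Eif4ebp2, a repressor of cap-dependent translation, had ratios of 2.02 and 2.46 in wild type and 0.794 and 0.999 in Dll3 null (log2 -1.33 ± 0.16, adjusted p = 0.0312), but the remaining Eif4ebp2 probe sets ranged from -0.37 to 0.37. The Eif4ebp2 probe sets therefore disagreed in sign.

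Among the other lower calls, Ccnd2, the G1 cyclin D2, had ratios of 1.84 and 2.04 in wild type and 0.820 and 0.962 in Dll3 null at the called probe set (log2 -1.13 ± 0.13, adjusted p = 0.0296). All its other probe sets were below 0, from -1.29 to -0.11, and 4 of these had both Dll3 null arrays below both wild types. Ttc28, a tetratricopeptide repeat protein, had ratios of 2.14 and 2.21 in wild type against 0.778 and 0.866 (log2 -1.40 ± 0.14, adjusted p = 0.0248), and its other probe set differed by -0.62. Npepps, a cytosolic aminopeptidase, had 1.91 and 1.92 against 0.807 and 0.705 (log2 -1.34 ± 0.13, adjusted p = 0.0248), while its other probe set differed by -0.11. Dcx, the microtubule-binding protein doublecortin of migrating neurons, had 1.72 and 1.83 against 0.825 and 1.00 (log2 -0.97 ± 0.13, adjusted p = 0.0403). For all these genes both wild types lay above every other array of the series. Further lower calls were Mtdh (log2 -1.10), the myosin phosphatase inhibitor gene Ppp1r14a (-1.06), Fam222b (-0.90), the neuronal actin-capping gene Tmod2 (-0.88), the LIM-domain scaffold gene Limd1 (-0.82), the Par6 polarity gene Pard6g (-0.79) and the endoplasmic reticulum channel gene Clcc1 (-0.70), with adjusted p from 0.0296 to 0.0495. Their other probe sets did not all follow: the other Fam222b probe set differed by 0.01, those of Tmod2 by -0.05, and those of Mtdh ranged from -0.11 to 0.26 and of Clcc1 from -0.29 to 0.12.

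Pbrm1, a bromodomain subunit of the PBAF chromatin remodelling complex, followed another pattern. The called Pbrm1 probe set had ratios of 1.00 and 1.20 in wild type, 0.479 and 0.556 in Dll3 null, 0.681 and 0.601 in Dll3 het, 1.31 and 1.26 in Notch1 null, with 1.02 in Notch1 het. Both Dll3 null arrays were the lowest of the 9, the Dll3 het arrays came next, and no wild-type or Notch1 array overlapped with them. Dll3 null was 2.12-fold lower than wild type (log2 -1.09 ± 0.13, adjusted p = 0.0320). The difference from Dll3 het, -0.31 ± 0.13, missed the threshold (adjusted p = 0.897). The remaining Pbrm1 probe sets differed from wild type by -0.27 and -0.14.

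The named higher calls belong to nutrient uptake. Tfrc encodes the transferrin receptor, through which cells take up iron. Its called probe set had ratios of 0.813 and 0.728 in wild type, 1.48 and 1.75 in Dll3 null, 2.02 and 1.64 in Dll3 het, 0.882 and 1.00 in Notch1 null, with 0.610 in Notch1 het. All 4 Dll3 arrays lay above all others. Dll3 null was 2.09-fold higher than wild type (log2 1.07 ± 0.14, adjusted p = 0.0403), and the other Tfrc probe sets differed by 0.33 to 0.97. Slc2a3, the glucose transporter GLUT3, was called at 2 probe sets. At 1421924_at the ratios were 0.537 and 0.467 in wild type, 1.00 and 1.30 in Dll3 null, 1.13 and 0.918 in Dll3 het, 2.15 and 2.20 in Notch1 null, with 0.975 in Notch1 het. Wild type was the lowest and Notch1 null the highest, with the Dll3 arrays and Notch1 het between them. Dll3 null was 2.27-fold above wild type there (log2 1.18 ± 0.15, adjusted p = 0.0403) and 2.40-fold above it at 1427770_a_at (log2 1.26 ± 0.17, adjusted p = 0.0403). The last higher call carries several gene symbols and is not named. Just outside the threshold lay probe sets of Tbl1x (2.00-fold lower), Ebf1 (log2 -0.87) and the atypical protein kinase C gene Prkci (0.88), each with an adjusted p of 0.0503.

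**Figure D1:**
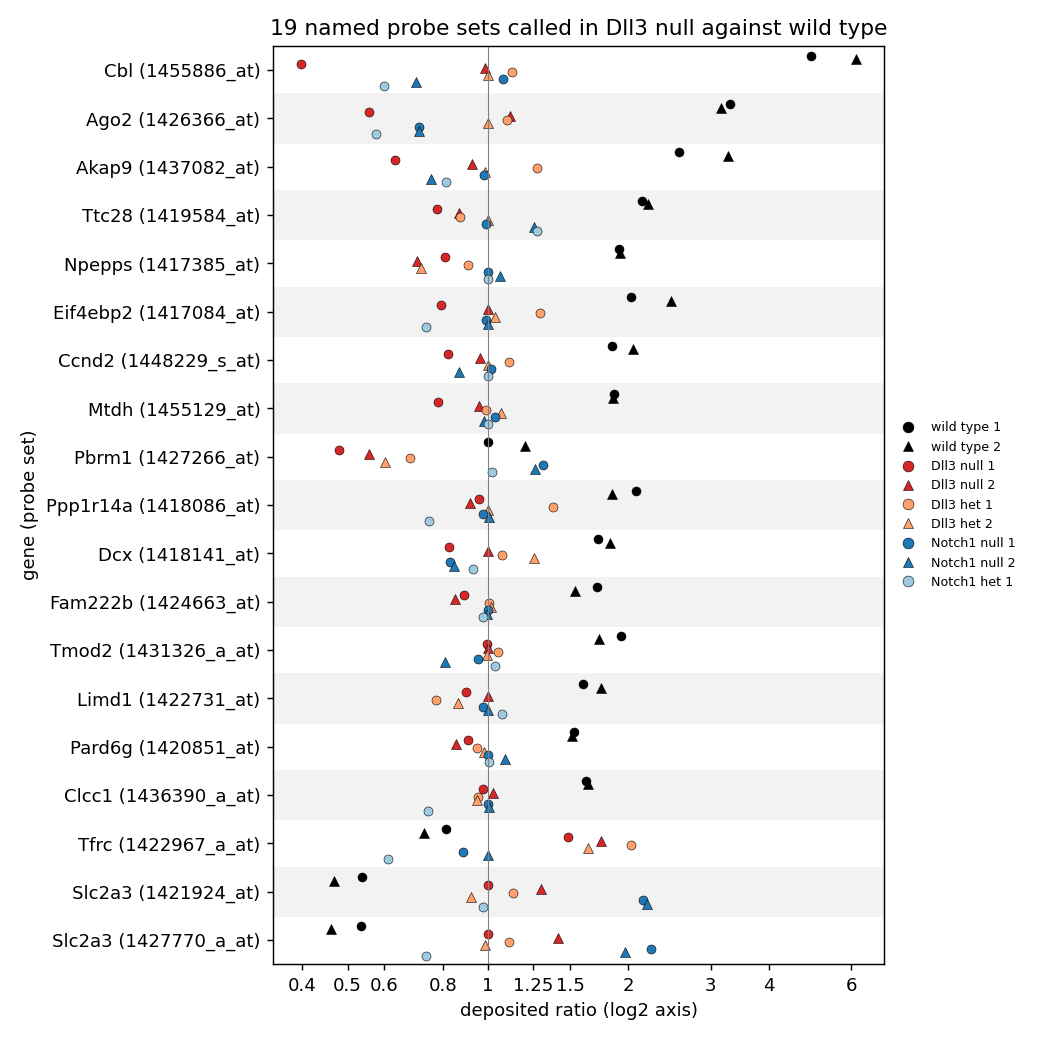
Deposited ratio (log2 axis) of the 19 named probe sets called in Dll3 null against wild type, 1 point per array, with colours for genotypes and shapes for replicates. Both wild types (black) lie outside the other 7 arrays in all but Pbrm1 and Tfrc, in which the 4 Dll3 arrays (red and orange) stand apart; Cbl reaches 6.15 in wild type 2.

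The position of the wild-type arrays was shared by most calls. In 18 of the 20 called probe sets both wild types lay outside all 7 other arrays, a pattern found in 6.77% of all probe sets with wild type higher and 5.69% with wild type lower. The 4 Dll3 arrays lay together outside all others in 4 of the 20 (Npepps, Pbrm1, Pard6g and Tfrc), and both Dll3 null arrays outside all 7 others in 5 (Ttc28, Mtdh, Pbrm1, Fam222b and Pard6g). Over all probe sets the former pattern occurred in 2.84% with the Dll3 arrays higher and 1.71% with them lower, and the latter in 2.53% and 1.41%. The 20 were selected by their difference between Dll3 null and wild type, which favours such patterns among them. The shares over all probe sets are therefore no test of enrichment. The dap control was likewise highest in both wild types. Its part in these calls was not tested. The comparison of Dll3 null with Dll3 het, which does not use the wild types, gave 0 called probe sets and 0 called genes with limma (0% each), against 1201 probe sets (5.31%) and 654 genes (5.28%) at an unadjusted p under 0.05. For the 20 probe sets called against wild type the lowest adjusted p against Dll3 het was 0.897. The comparison of Dll3 het with wild type shares the wild-type arrays with that of Dll3 null and gave 110 called probe sets (0.486%). Its own log2 differences stand beside those of Dll3 null at the called probe sets as -2.37 beside -3.14 for Cbl, -1.62 beside -2.04 for Ago2 and -1.37 beside -1.92 for Akap9. They were -1.25 beside -1.34 for Npepps, -1.22 beside -1.40 for Ttc28, -0.62 beside -0.97 for Dcx, -1.03 beside -0.82 for Limd1 and 1.24 beside 1.07 for Tfrc. Dll3 null against Notch1 null gave 1298 called probe sets (5.74%) and 966 called genes (7.79%).

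The Notch pathway itself showed small differences, and none of its measured members was called at gene level. Among 9 ligand genes, 1 had an unadjusted p under 0.05, against 9.34% of all genes, and the median log2 difference was 0.01. This was Dll3, the targeted gene, which had ratios of 1.09 and 1.00 in wild type, 0.804 and 0.933 in Dll3 null, 1.06 and 0.987 in Dll3 het, 0.981 and 1.09 in Notch1 null, with 1.16 in Notch1 het. The Dll3 null arrays were the lowest, by a log2 difference of -0.27 ± 0.11 from wild type (adjusted p = 0.476). No source at hand places the Dll3 probes relative to the targeted sequence, so the value does not check the genotype. The activating ligand genes Dll1 (log2 0.15 ± 0.11), Dll4 (0.14 ± 0.10) and Jag1 (0.28 ± 0.14) did not pass the test. Of the 4 receptor genes, Notch1 had ratios of 0.945 and 1.01 in wild type, 0.867 and 0.734 in Dll3 null and 1.39 and 1.71 in Notch1 null. Wild type and Dll3 null did not overlap, and the difference of -0.30 ± 0.13 did not pass (adjusted p = 0.504). Notch2 differed by 0.03 ± 0.10, with -0.18 and 0.24 at its 2 probe sets.

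Genes that modify the receptor and carry the signal lay on both sides of wild type. Of 10 genes of receptor glycosylation and ligand uptake 1 was higher and 0 were lower at an unadjusted p under 0.05, with a median of -0.05. The higher gene was Lfng, the fringe glycosyltransferase that tunes Notch to its ligands and cycles in the segmentation clock. Its ratios were 0.927 and 0.953 in wild type, 1.09 and 1.20 in Dll3 null and 1.07 and 1.18 in Dll3 het. The 4 Dll3 arrays lay above all others, but the difference of 0.28 ± 0.10 did not pass (adjusted p = 0.413). Of 26 genes of receptor cleavage and nuclear effectors, 3 were higher and 3 lower at an unadjusted p under 0.05 (23.1%, against 9.34% of all genes), with a median of 0.04. The higher members were Sel1l (0.38 ± 0.11), a factor of protein quality control, and the metalloproteases Adam10 (0.35 ± 0.11) and Adam17 (0.27 ± 0.09), which make the first cut in the activated receptor. The lower members were the acetyltransferase gene Kat2a (-0.28 ± 0.10), the Deltex gene Dtx3 (-0.46 ± 0.17) and Fbxw7 (-0.24 ± 0.09), whose product marks the cleaved receptor for degradation. Adjusted p of these genes lay between 0.319 and 0.415.

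Of 18 Notch target genes, 1 was higher and 4 lower at an unadjusted p under 0.05. This share was 27.8%, against 9.34% of all genes, and the median difference was -0.09. Promoters of 2 genes follow, chosen to set a direct Notch target beside the segmentation gene of lowest p: Hes5, a bHLH repressor that Notch induces in many tissues, and Uncx, a homeobox gene of the posterior somite compartment. Each line gives the 250 bases before the gene's start from RefSeq (GRCm38.p6, plus strand). The Hes5 window is chr4:154960673-154960922 and the Uncx window chr5:139543648-139543897. Capitals mark TGGGAA on either strand, the core of the site that RBPJ binds. Overlaps with other motifs were not examined.
Hes5: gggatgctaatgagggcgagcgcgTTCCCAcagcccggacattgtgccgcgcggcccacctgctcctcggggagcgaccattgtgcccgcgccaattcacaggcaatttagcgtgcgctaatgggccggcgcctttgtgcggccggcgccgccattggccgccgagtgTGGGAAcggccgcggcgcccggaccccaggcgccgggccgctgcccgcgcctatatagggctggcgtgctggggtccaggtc
Uncx: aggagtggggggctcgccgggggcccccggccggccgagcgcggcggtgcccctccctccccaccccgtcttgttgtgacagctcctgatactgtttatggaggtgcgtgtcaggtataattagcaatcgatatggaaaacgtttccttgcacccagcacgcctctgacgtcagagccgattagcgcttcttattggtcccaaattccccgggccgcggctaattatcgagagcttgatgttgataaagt
The motif begins 226 and 82 bases before the Hes5 start, first in the reverse orientation (TTCCCA) and then in the forward orientation, and has 0 matches in the Uncx window. It is found in 7094 of 32851 promoter windows of this length (21.6%), so a match is a description of the sequence and not a binding site.

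Hes5, with the RBPJ motifs shown above, had gene-level ratios of 1.28 and 1.35 in wild type, 1.06 and 1.03 in Dll3 null, 0.924 and 1.02 in Dll3 het, 0.522 and 0.456 in Notch1 null, with 0.714 in Notch1 het. Dll3 null lay between wild type and the Notch1 arrays without overlap. The log2 difference from wild type was -0.34 ± 0.10 (adjusted p = 0.351) and that from Notch1 null 1.10 (adjusted p = 0.00102), so Hes5 was higher in Dll3 null than in Notch1 null. The Notch feedback inhibitor gene Nrarp showed a like order. Its ratios were 1.40 and 1.15 in wild type, 1.17 and 0.936 in Dll3 null and 0.635 and 0.757 in Notch1 null. Dll3 het, at 1.07 and 1.04, lay within the range of Dll3 null. Here wild type and Dll3 null overlapped (-0.28 ± 0.14 from wild type, adjusted p = 0.596), while Dll3 null was above Notch1 null by 0.59 (adjusted p = 0.0333). The 2 Nrarp probe sets differed from wild type by -0.53 and -0.03. The targets with the lowest p were Id4, an inhibitor of bHLH factors, with ratios of 1.68 and 1.39 in wild type and 1.08 and 0.953 in Dll3 null (-0.59 ± 0.12, adjusted p = 0.153), and Snai1, a repressor of epithelial genes that cycles in the presomitic mesoderm, with 1.49 and 1.32 against 1.00 and 1.01 (-0.48 ± 0.10, adjusted p = 0.175). In both genes the wild types were above every other array. Dll3 het had ratios of 1.00 and 1.09 for Id4 and 0.947 and 0.865 for Snai1. Hes6 differed by -0.35 ± 0.12, Hey1 by -0.16 ± 0.15, Hey2 by -0.13 ± 0.13, Hes1 by -0.05 ± 0.12 and Heyl by 0.01 ± 0.10. The Hey1 difference turned to 0.0082 without Dll3 null 2, and that of Heyl turned below 0 in 4 alternatives.

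**Figure D2:**
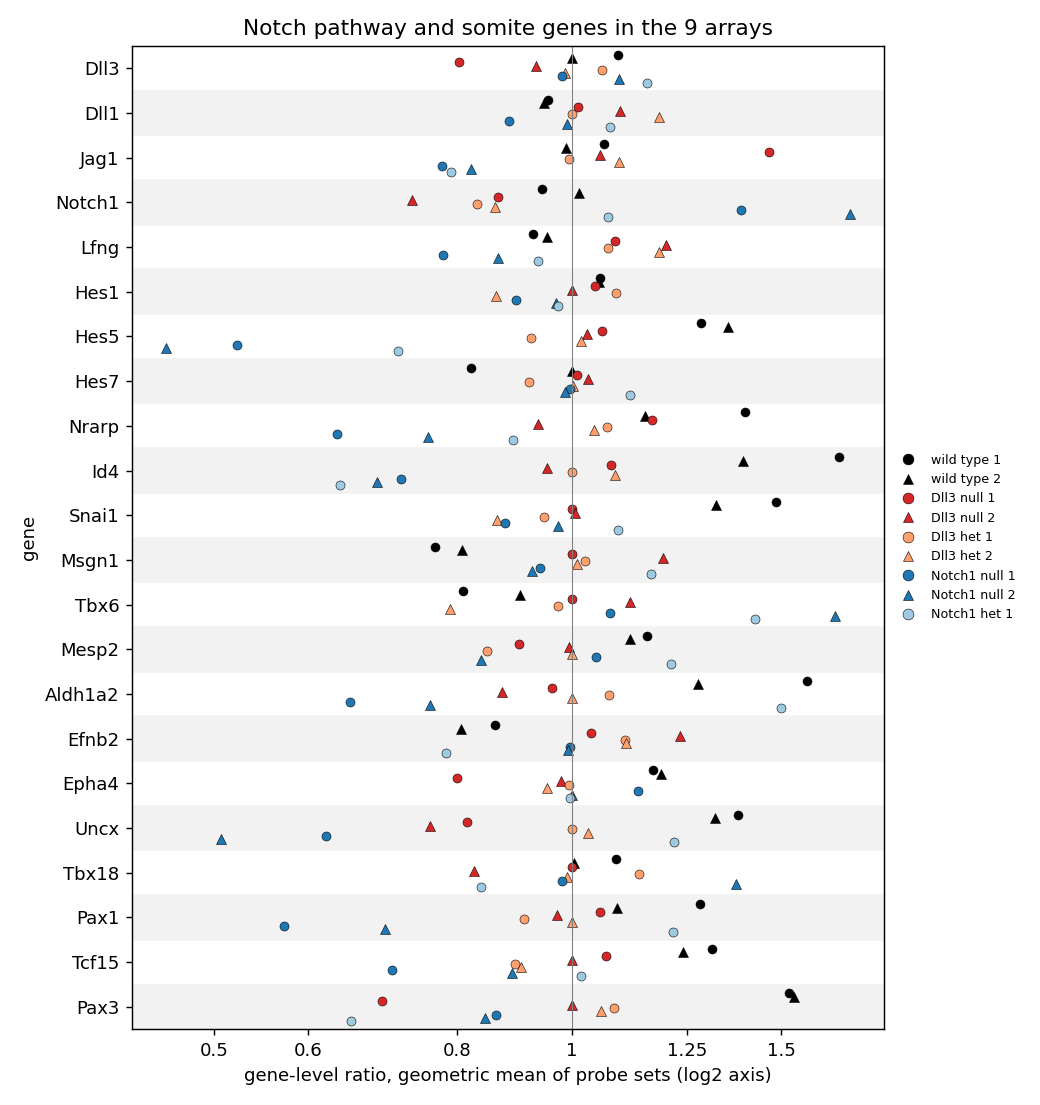
Gene-level ratio (geometric mean of a gene's probe sets, log2 axis) of Notch pathway and somite genes in the 9 arrays, with colours for genotypes and shapes for replicates. Among these genes, chosen with earlier results known, Dll3 null (red) and wild type (black) overlap only for Jag1 and Nrarp. Over all genes Dll3 null lies lower without overlap in 19.7% and higher in 19.9%. For example, it lies below wild type for Dll3, Hes5, Id4, Uncx and Pax3 and above it for Lfng and Msgn1. Hes5 is lowest in Notch1 null (dark blue, 0.456 and 0.522).

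Segmentation clock genes were divided by signalling branch, and 0 were called in any. Of 10 genes of the Notch branch, Lfng was the 1 higher and Hes5 the 1 lower at an unadjusted p under 0.05, with a median of -0.02. Hes7, the oscillating repressor of the mouse clock, had ratios of 0.823 and 1.00 in wild type and 1.01 and 1.03 in Dll3 null, which did not overlap (0.17 ± 0.11, adjusted p = 0.689). Of 13 genes of the Wnt branch, 2 were higher at an unadjusted p under 0.05: Has2, which makes hyaluronan (0.58 ± 0.13, adjusted p = 0.197), and the receptor gene Tnfrsf19 (0.34 ± 0.13). The FGF branch had 4 higher and 3 lower of 20 (35%, against 9.34% of all genes) with a median of 0.04. Its higher members of lowest p were the phosphatase gene Ptpn11 (0.34 ± 0.09) and the feedback inhibitor genes Dusp6 (0.40 ± 0.12) and Il17rd (0.27 ± 0.09). Dusp6 had ratios of 0.827 and 0.804 in wild type and 1.15 and 1.00 in Dll3 null. In the other direction the gene of lowest p, also the lowest of the branch, was Snai1 (-0.48 ± 0.10, adjusted p = 0.175), listed among the Notch targets as well. The ligand gene Fgf18 followed (-0.29 ± 0.12, adjusted p = 0.498).

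In the presomitic mesoderm and tail bud list, 2 of 22 genes were higher and 3 lower at an unadjusted p under 0.05. This was 22.7%, against 9.34% of all genes, and the list median was 0.05. Msgn1, a bHLH factor of presomitic mesoderm, had ratios of 0.767 and 0.809 in wild type, 1.00 and 1.19 in Dll3 null and 1.02 and 1.01 in Dll3 het (0.47 ± 0.10, adjusted p = 0.197). Aldh1a2, which makes the retinoic acid that opposes FGF in front of the segmenting region, had 1.58 and 1.28 in wild type, 0.962 and 0.873 in Dll3 null, 1.07 and 1.00 in Dll3 het and 0.651 and 0.759 in Notch1 null (-0.63 ± 0.13, adjusted p = 0.158). Both genes separated wild type from Dll3 null, in opposite directions. Tbx6, required for presomitic identity, differed by 0.31 ± 0.19, and Mesp2, which fixes the next segment border, by -0.27 ± 0.13 (adjusted p = 0.572). In Mesp2 the wild types, at 1.16 and 1.12, lay above the Dll3 null arrays at 0.902 and 0.994. Of the 6 genes listed for spondylocostal dysostosis 5 were measured, and Lfng was the only higher and Dll3 the only lower member at an unadjusted p under 0.05.

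Somite polarity genes held the segmentation gene nearest to the threshold. Uncx, whose promoter is shown above, marks the posterior compartment of each somite and is needed for the pedicles of the vertebrae and the ribs. Its single probe set had ratios of 1.38 and 1.32 in wild type, 0.816 and 0.760 in Dll3 null, 1.00 and 1.03 in Dll3 het, 0.621 and 0.507 in Notch1 null, with 1.22 in Notch1 het. Dll3 null lay below both Dll3 het arrays and above both Notch1 null arrays, and none of these groups overlapped with another. The difference from wild type was 1.71-fold lower (log2 -0.78 ± 0.11, adjusted p = 0.0749). Against Dll3 het it was -0.37 ± 0.11 (adjusted p = 0.940) and against Notch1 null 0.49 (adjusted p = 0.0292). Of 15 polarity genes 2 were higher and 4 lower at an unadjusted p under 0.05. This was 40%, against 9.34% of all genes, with a median of -0.10. The gene lists share members, so their shares are not independent. Among these polarity genes, Dll3, Efnb2 and Epha4 were also counted in the presomitic list and Hes5 among the Notch targets. Efnb2, an ephrin of the posterior compartment, had ratios of 0.862 and 0.807 in wild type and 1.04 and 1.23 in Dll3 null (0.44 ± 0.10, adjusted p = 0.233), and its receptor gene Epha4 had 1.17 and 1.19 against 0.801 and 0.980 (-0.41 ± 0.12, adjusted p = 0.315). The 2 Epha4 probe sets differed by -0.76 and -0.07. Tbx18, of the anterior compartment, differed by -0.20 ± 0.16 (adjusted p = 0.758).

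Among 33 genes of somites and their derivatives, 2 were higher and 5 lower at an unadjusted p under 0.05. The share was 21.2%, against 9.34% of all genes. Both Dll3 null arrays lay below both wild types in 13 of the 33 and above them in 5, against 19.7% and 19.9% of all genes. Pax3, a paired-box factor of dermomyotome, neural tube and neural crest, had gene-level ratios of 1.52 and 1.54 in wild type, 0.691 and 0.999 in Dll3 null, 1.08 and 1.06 in Dll3 het and 0.652 to 0.863 in the Notch1 arrays. Wild type lay above every other array (-0.88 ± 0.15, adjusted p = 0.107), and the adjusted p became 0.0170 without Dll3 null 2. Twist1, a mesenchymal bHLH factor, differed by -0.39 ± 0.11 and Tcf15, needed for epithelial somites, by -0.30 ± 0.12. The myogenic factor gene Myod1 differed by 0.35 ± 0.11 and the muscle acetylcholine receptor gene Chrna1 by 0.36 ± 0.14. The sclerotome gene Pax1 had 1.28 and 1.09 against 1.06 and 0.971 (-0.22 ± 0.13), without overlap, and Meox1 overlapped (0.02 ± 0.13). Meox1 turned below 0 when wild type 1 or Dll3 null 2 was left out.

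Hox genes give segments their identity along the body axis, and 0 of those measured were called. In the anterior group (paralogs 1 to 4) 0 were higher and 1 of 9 lower at an unadjusted p under 0.05, with a median of -0.15, namely Hoxb3 (-0.24 ± 0.10). In the central group (5 to 8) 1 of 9 was higher and 2 lower, namely Hoxb5, with ratios of 1.36 and 1.51 in wild type and 1.07 and 1.00 in Dll3 null (-0.47 ± 0.10, adjusted p = 0.159), and Hoxa5 (-0.28 ± 0.10). In the posterior group (9 to 13) Hoxb9 had 0.968 and 0.825 in wild type but 1.92 and 1.07 in Dll3 null, and Hoxd12 differed by -0.34 ± 0.13. The Hoxb9 difference of 0.68 ± 0.22 (adjusted p = 0.361) rested on Dll3 null 1 and was 0.26 without it.

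In the face and neural crest, the genes of lowest p lay below wild type. Of 27 branchial arch and face genes 1 was higher and 4 lower at an unadjusted p under 0.05 (18.5%, against 9.34% of all genes). Both Dll3 null arrays lay below both wild types in 10 of 27 and above them in 3, against 19.7% and 19.9% of all genes. Barx1, a homeobox gene of the arches that is also needed for stomach and teeth, had ratios of 1.91 and 1.54 in wild type, 1.04 and 0.986 in Dll3 null, 0.976 and 1.18 in Dll3 het and 0.725 to 1.00 in the Notch1 arrays (-0.76 ± 0.15, adjusted p = 0.144). Pitx1, of the first arch and hindlimb, had 1.20 and 1.15 against 0.948 and 0.777 (-0.45 ± 0.11), and the crest gene Tfap2b had 1.35 and 1.09 against 0.878 and 0.844 (-0.50 ± 0.14). The related Tfap2a differed in the other direction (0.23 ± 0.10). Of 27 neural crest genes 2 were higher and 5 lower (25.9%, against 9.34% of all genes), with a list median of -0.02. The lower ones were led by Pax3, Snai1 and Tfap2b, of which Pax3 and Snai1 were also counted in lists above.

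Genes of neuronal differentiation lay mostly below wild type. Of 54 measured, 0 were higher and 12 lower at an unadjusted p under 0.05 (22.2%, against 4.19% higher and 5.15% lower among all genes), and the median was -0.15. Both Dll3 null arrays lay below both wild types in 22 of 54 and above them in 5, against 19.7% and 19.9% of all genes. The list was chosen with earlier results known and 0 members were called at gene level, so these counts are a description. Ebf1, a factor of early neurons, had ratios of 1.15 and 1.24 in wild type and 0.797 and 0.847 in Dll3 null (-0.54 ± 0.10, adjusted p = 0.112), and lay at 0.038 once probe sets whose median is not 1 were left out. Dcx as a gene had 1.31 and 1.31 against 0.948 and 0.899 (-0.51 ± 0.10, adjusted p = 0.153), and the proneural gene Neurog2 had 1.41 and 1.28 against 0.984 and 1.00 (-0.43 ± 0.11, adjusted p = 0.252). Averaged over the list, log2 ratios were 0.14 and 0.10 in wild type, 0.02 and -0.09 in Dll3 null, -0.07 and 0.03 in Dll3 het and -0.28, -0.27 and -0.18 in the Notch1 arrays. Against Dll3 het the list's median difference was 0.01. Of 40 neural progenitor genes 2 were higher and 6 lower (20%), with a median of -0.03. They included Igdcc3 (-0.48 ± 0.14), Hes5 and the brain creatine kinase gene Ckb (-0.66 ± 0.21) below wild type and Lin28a (0.36 ± 0.12), a repressor of let-7 processing, above it.

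**Figure D3:**
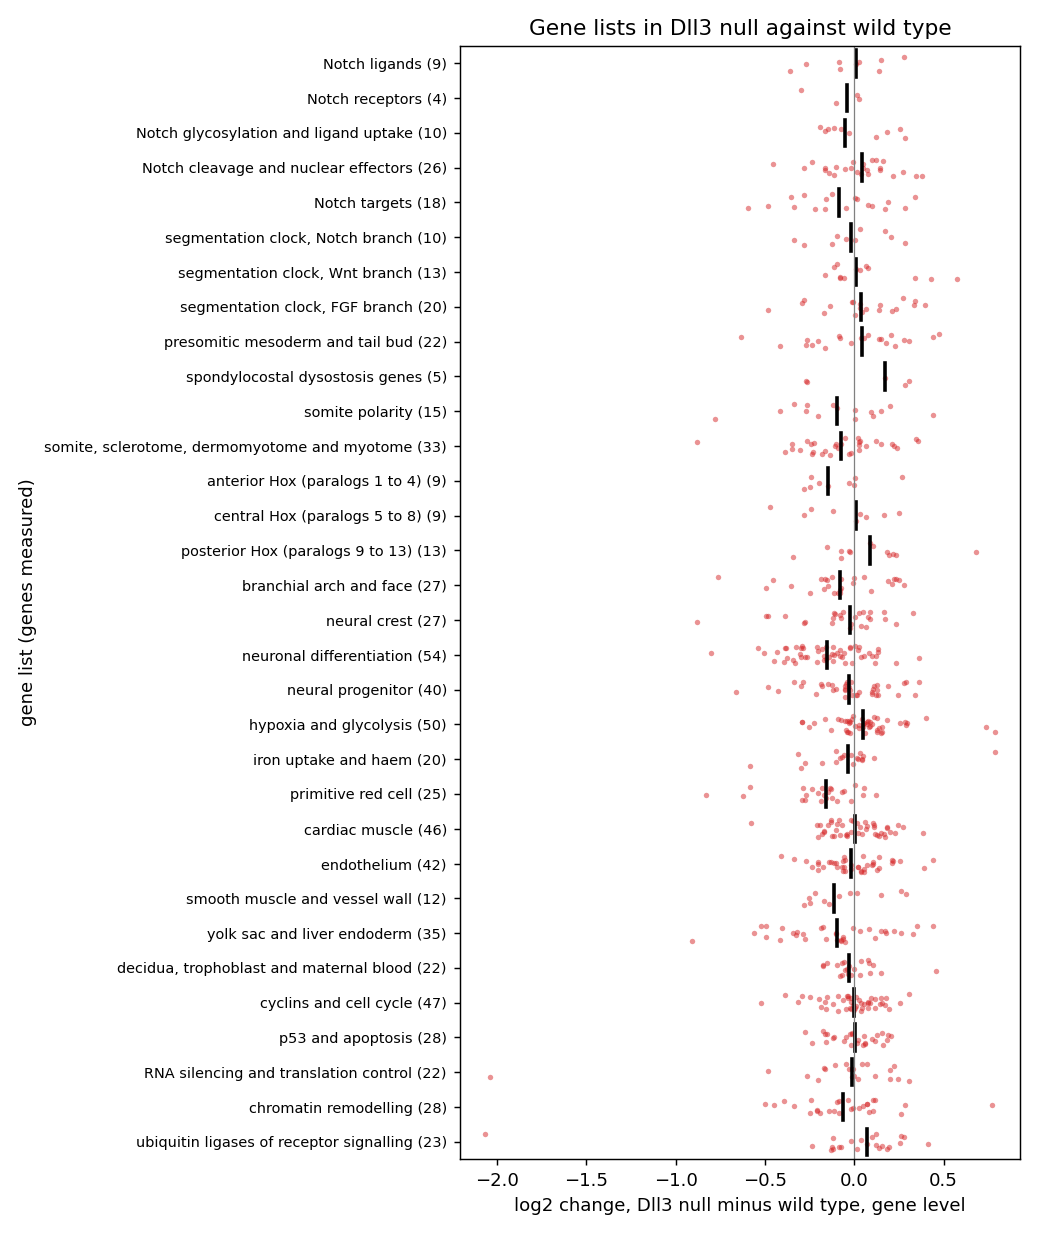
Log2 difference of Dll3 null minus wild type at gene level for each measured gene of 32 lists, with 1 point per gene and a black bar at the list median. Medians lie between -0.16 and 0.17, and the outlying points at -2.07 and -2.04 are Cbl and Ago2.

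Genes of hypoxia and glycolysis, iron and red cells were examined because Slc2a3 and Tfrc belong to them. These lists were therefore not independent of the calls. Of 50 hypoxia and glycolysis genes 5 were higher and 0 lower at an unadjusted p under 0.05 (10%, near the 9.34% of all genes), with a median of 0.05. Beside Tfrc and Slc2a3 they were Stc2, a secreted glycoprotein induced by stress, with ratios of 0.814 and 0.722 in wild type, 0.990 and 1.03 in Dll3 null and 2.35 and 2.62 in Notch1 null (0.40 ± 0.10 from wild type, adjusted p = 0.268), the glycolytic regulator gene Pfkfb3 (0.30 ± 0.10) and the glucose transporter gene Slc2a1 (0.25 ± 0.09). Stc2 in Dll3 null was below Notch1 null by a log2 difference of -1.30 (adjusted p = 0.000418). The list mean was -0.11 and -0.16 in wild type, -0.06 and -0.08 in Dll3 null and 0.67 and 0.91 in Notch1 null, and the Dll3 null arrays lay nearer to wild type than to Notch1 null. Of 20 genes of iron uptake and haem, Tfrc was the single one higher, and 0 were lower.

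Primitive red cell genes set 1 Dll3 null array apart. Of 25 genes, 21 had a difference below 0, 2 of them at an unadjusted p under 0.05, and the median was -0.16. The list mean was -0.47 in Dll3 null 2 and -0.11 to 0.14 in the other 8 arrays. Embryonic globin Hba-x had ratios of 0.960 and 1.02 in wild type and 1.01 and 0.648 in Dll3 null, and Alas2, the haem synthesis enzyme of red cells, had 0.956 and 1.00 against 1.09 and 0.390. The lower members were Zfpm1, a partner of GATA factors (-0.62 ± 0.20), and the blood group glycoprotein gene Rhag (-0.83 ± 0.36). Without Dll3 null 2 these became -0.26 and -0.18. Yolk sac and liver endoderm genes varied between replicates instead: the mean of 35 genes was -0.19 and 0.25 in wild type and 0.02 and -0.20 in Dll3 null, and the endoderm gene Ttr ranged from 0.745 to 2.23 within wild type. Of 22 genes of decidua, trophoblast and maternal blood 0 had an unadjusted p under 0.05, and their mean lay from -0.33 to -0.27 in the wild-type and Dll3 null arrays. The trophoblast gene Tpbpa, for example, had ratios of 0.564 and 0.615 in wild type and 0.591 and 0.618 in Dll3 null.

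**Figure D4:**
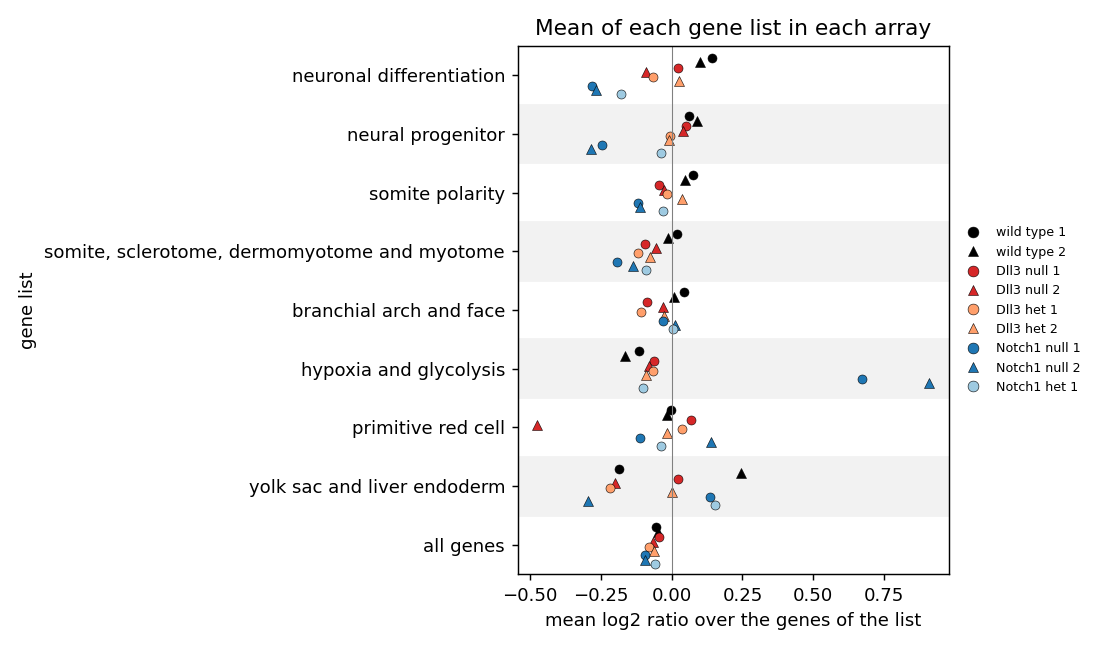
Mean log2 ratio over the genes of 8 lists and of all genes in each of the 9 arrays, with colours for genotypes and shapes for replicates. The neuronal list is highest in both wild types (0.14 and 0.10), the red cell list is lowest in Dll3 null 2 (-0.47), and the hypoxia list is high in Notch1 null only (0.67 and 0.91).

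In heart and vessels 0 genes were called. Of 46 cardiac genes 2 were higher and 1 lower at an unadjusted p under 0.05 (6.52%), with a median of 0.01. Tbx2, a repressor in the atrioventricular canal that is also expressed in limb and eye, had ratios of 1.55 and 1.43 in wild type, 1.00 and 0.991 in Dll3 null and 0.978 and 0.977 in Dll3 het (-0.58 ± 0.12, adjusted p = 0.159), and the atrial myosin gene Myh6 differed by 0.39 ± 0.14. Of 12 genes of smooth muscle and vessel wall 1 was lower (8.33%), and of 42 endothelial genes 2 were higher and 3 lower (11.9%), with Efnb2 on the higher side and the vessel phosphatase gene Ptprb (-0.34 ± 0.10) on the lower. Growth and death genes lay near the background: of 47 cell cycle genes 1 was higher and 3 lower (8.51%), and of 28 p53 and apoptosis genes 1 was lower (3.57%). The lower cell cycle genes were Ccnd2 (-0.52 ± 0.10 as a gene), Ccne1 (-0.39 ± 0.11) and the inhibitor gene Cdkn1c (-0.29 ± 0.11).

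Lists built around the called genes are description only. Of 23 ubiquitin ligases of receptor signalling 2 were higher and 2 lower at an unadjusted p under 0.05 (17.4%, against 9.34% of all genes): Cbl fell, Fbxw7 was the other lower gene, and Nedd4 differed by 0.41 ± 0.11 in the other direction. Of 22 RNA silencing and translation genes 1 was higher and 2 lower (13.6%). Ago2 (adjusted p = 0.0695 at gene level) stood alone beyond 1 on the log2 scale, and Eif4a1, the translation initiation helicase, differed by 0.25 ± 0.09. Of 28 chromatin remodelling genes 2 were higher and 5 lower at an unadjusted p under 0.05 (25%, against 9.34% of all genes). Kansl1, a scaffold of a histone acetyltransferase complex, had ratios of 0.571 and 0.596 in wild type, 0.982 and 1.01 in Dll3 null and 0.944 to 1.29 in the others (0.77 ± 0.12, adjusted p = 0.0749). The remodelling ATPase gene Smarca4 had 1.17 and 1.28 in wild type against 0.796 and 1.01 in Dll3 null (-0.45 ± 0.13), and Pbrm1 as a gene differed by -0.50 ± 0.10 (adjusted p = 0.159).

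Genes with several probe sets allowed a check within each array. Of 4956 genes with at least 2 probe sets, 185 (3.73%) had both Dll3 null arrays above both wild types at every probe set and 184 (3.71%) below, so neither direction prevailed. The highest of the former were Tfrc (0.79 ± 0.11, adjusted p = 0.0749), Kansl1, Slc2a3 (0.74 ± 0.12), Has2, Prkci (0.52 ± 0.09), Eif2s3x (0.52 ± 0.16), the SUMO protease gene Senp2 (0.49), the mitotic kinesin gene Kif11 (0.47), the glucosylceramide synthase gene Ugcg (0.45) and the telomere gene Terf1 (0.45). Prkci, which acts in cell polarity with Par6, had ratios of 0.737 and 0.736 in wild type and 1.01 to 1.09 in all other arrays. The lowest of the latter were Cbl, Ttc28 (-1.01 ± 0.13), Pax3, the G protein gene Gnai2 (-0.73), Nudcd2 (-0.71), Limd1 (-0.66), Zfpm1, Zfp704 (-0.57), Selenos (-0.55) and Cd99 (-0.52). Eif2s3x is an X-linked gene that escapes inactivation, and the female-pattern array Dll3 null 1 had a ratio of 1.23 against 1.09 in Dll3 null 2 and 0.814 and 0.798 in the male-pattern wild types. Gnai2 had 1.15 and 0.703 in Dll3 null, a wider gap between replicates than that between Dll3 null 1 and the wild type at 1.41.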

How the data were processed

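Whole-embryo RNA from 9 embryo samples was measured on 1 array each. Per the submitters' processing notes the authors used RMA, a background correction, normalization and probe summary for Affymetrix arrays, with no version or genome build named. The deposited values are linear ratios per probe set (the values show this: 19847 of 22690 medians are exactly 1, 19 lie below it by at most 0.002, 2824 lie further below and 0 above). The divisor is not stated. Ratios keep fold changes and remove the level, so detection is unknown. Whether the probe sets with a median below 1 are the dim ones is not stated and was not tested. They were kept, and leaving out probe sets whose median is not 1 was run as an alternative. Array number limits the precision.

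Values were taken to log2 with no pseudocount. Leaving out 64 controls, 22626 probe sets entered the tests, of which 20380 carry 1 symbol in the platform annotation (12393 genes), 691 several and 1555 none. RefSeq (GRCm38.p6) changed 0 symbols. Its promoter table held 75 of 101 genes described. A gene's value is the mean log2 ratio of its probe sets. limma 3.58.1 in R 4.3.3 was fitted with 1 mean per genotype over all 9 arrays, with 4 residual and 5.42 prior degrees of freedom, and p-values were adjusted by Benjamini-Hochberg over the whole table. The procedure was run on simulated data with independent noise and added shifts. These data held no differences in embryo sex or poly-A controls, so they cannot show how the calls fare under them. 

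The genes and lists were chosen with earlier results of these data known. Patterns of arrays standing apart from all others were described after the values were seen. Named are all called probe sets with 1 symbol, the 10 genes each way whose probe sets all separate the groups, a fixed set of Notch and somite genes (Ripply2 was matched to 0 probe sets), and up to 3 members of lowest p each way per list. Alternatives were other scalings, fits, sets of arrays, thresholds and gene summaries, embryo sex as a covariate, replicate number as a block and leaving out each array.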

Additional observations from a re-analysis of the deposited data

Results flagged for a closer look

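Of the 20 called probe sets 4 also differed between Dll3 null and Notch1 null when that difference itself was tested with limma, as 1298 of all probe sets did (5.74%). The 20 were selected with the same Dll3 null arrays, so these shares are no test of enrichment. Pbrm1 was lower in Dll3 null than in Notch1 null (log2 -1.32, adjusted p = 0.00196), while the 2 Notch1 null arrays, at 1.31 and 1.26, lay above both wild types. Tfrc was higher in Dll3 null than in Notch1 null (log2 0.78, adjusted p = 0.0165). At both called Slc2a3 probe sets every other array, those of the heterozygotes included, lay above both wild types. Slc2a3 was lower in Dll3 null than in Notch1 null, by -0.93 (adjusted p = 0.0126) at 1421924_at and -0.82 (adjusted p = 0.0247) at 1427770_a_at. The dap control was also lower in Dll3 null (0.360 and 0.377) than in Notch1 null (5.26 and 2.62), and its part in these differences was not tested.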

How the results depend on the processing

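The counts of 20 called probe sets and 1 called gene depended on several choices. They became 0 and 0 when only the 4 compared arrays were fitted, 2 and 0 with only the wild-type and Dll3 arrays, 2 and 0 with embryo sex as a covariate, 0 and 0 at an adjusted p under 0.01, and 66 and 16 at an adjusted p under 0.1. Taking the probe set of largest SD for each gene gave 17 called genes. Leaving out each array in turn gave 0 to 49 probe sets and 0 to 5 genes, and these were not always the same: of the 49 without Dll3 null 2, 10 were among the 20. The single gene called without wild type 1, either Dll3 het array or Dll3 null 1 was not Cbl. The gene count was 0 without wild type 2 or without either Notch1 null array, and 5 without Dll3 null 2. Median centring (19), quantile normalization (14), robust fitting (23) and array weights (23) moved the probe-set count by less than 1.5 times. With replicate number as a block, 2 probe sets and 0 genes were called. Replicate number and embryo sex differ in coding only at wild type 1, so the block and the sex covariate are not separate checks. Differences between replicates of different groups correlated at -0.10 to 0.16, and the numbers were not taken as pairs.

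None of the 19 named probe sets reversed under any alternative run, but their calls ended in 7 (Ttc28) to 15 (Ppp1r14a) of 20 or 21 alternatives. The Cbl probe set ranged from -3.79 to -2.49 and its call at gene level ended in 12 of 23. At gene level 94 of 101 genes never reversed. The cause of the reversals was not tested. Ebf1, at -0.54 over all its probe sets, was at 0.038 with probe sets of a median other than 1 left out. Heyl was at -0.14 at the probe set of largest SD and -0.055 at the median. With sex as a covariate Notch2 was at -0.018, Xist at -0.10 and Eif2s3y at 0.25. Leaving out each array in turn gave ranges of -0.014 to 0.027 for Heyl, -0.32 to 0.0082 for Hey1, -0.15 to 0.19 for Meox1, -0.051 to 0.11 for Notch2, -0.0014 to 2.90 for Xist and -2.91 to 0.13 for Eif2s3y.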

Other observations

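Genes in which both Dll3 null arrays, rather than the wild types, stood apart from all 7 others numbered 321 higher (2.59%) and 166 lower (1.34%). The wild types stood apart more often, above all 7 others in 7.1% of genes and below them in 4.99%. Any pair of arrays can stand apart in some genes, so the pattern alone does not mark an effect of genotype. The examples below were chosen after their values were seen. Hnrnpl, an RNA-binding protein that regulates splicing, had ratios of 1.71 and 1.82 in Dll3 null, 1.00 and 1.01 in wild type, 0.939 and 1.20 in Dll3 het and 0.573 to 0.901 in the Notch1 arrays. The difference from wild type was 0.82 ± 0.15 (adjusted p = 0.112) and that from Dll3 het 0.73 ± 0.15 (adjusted p = 0.842), so neither passed the test. The transporter-family gene Mfsd11 had 1.45 and 1.34 in Dll3 null and 0.865 to 1.05 elsewhere (0.57 ± 0.11 from wild type).

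In 277 genes (2.24%) all 4 Dll3 arrays lay above, and in 211 (1.7%) below, the 5 wild-type and Notch1 arrays. Lix1, a gene of developing limb and neural tissue, had ratios of 1.35 and 1.33 in Dll3 null, 1.54 and 1.51 in Dll3 het and 0.830 to 1.00 in the 5 others. Tgfb2, a growth factor of heart and neural crest derivatives, had 0.790 and 0.813 in Dll3 null, 0.886 and 0.799 in Dll3 het, 1.04 and 1.24 in wild type and 1.39 to 1.47 in the Notch1 arrays. The mitochondrial serine transporter gene Sfxn1 and the zinc-finger gene Cxxc5 likewise had all 4 Dll3 arrays lowest, with differences from wild type of -0.33 ± 0.09 and -0.51 ± 0.12. The dap control parts the arrays in the same way, and its part in these differences was not tested.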
